A study of Mus musculus with 7 samples.

Results

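The genes described here encode 9 transcription factors that build and divide the T cell lineage: Tcf7, Lef1, Gata3, Bcl11b, Runx1, Runx3, Zbtb7b, Tox and Satb1. They were chosen by name, with no threshold on their values, from a table of 16734 genes, and all 9 were found in it, each once. Their levels were measured by sequencing the polyadenylated RNA of the whole thymus in mice aged 4 weeks. There were 3 libraries of wild type C57BL/6 mice (wt, replicates 1, 2A and 2B), 2 of Ikaros ZnF1-/- mice (replicates 1 and 2) and 2 of Ikaros ZnF4-/- mice (replicates 1 and 2). The mutants are homozygous germline alleles in which Ikaros, a zinc finger DNA-binding factor of lymphocytes encoded by Ikzf1, lacks either the first or the fourth finger of its DNA-binding domain. Their strain background is not given beyond the name of the allele, and the design addresses the separate roles of the fingers. All cells of the thymus carry the mutation, and the suspensions were not sorted. In such a mixture fewer cells of a type and less RNA per cell cannot be told apart.

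Progenitors that enter the thymus receive a Notch signal and switch on Tcf7 and Gata3, then Bcl11b, which closes the other lineages to them. TCF-1 (the product of Tcf7) and LEF1 are related proteins with a high mobility group (HMG) box, a DNA-bending domain, and both carry cells through the immature stages to the CD4+CD8+ double-positive stage that fills the thymus. After selection, Zbtb7b (ThPOK) and Gata3 favour the CD4 lineage, whereas Runx3 favours the CD8 lineage and silences Cd4. Tox is needed as selected cells become CD4 cells, and Satb1 folds chromatin around the genes of developing thymocytes.

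A level is given in RPKM, reads scaled by exon length and by how many reads a library had mapped, so levels can be compared between genes as well as between libraries. Replicate 1 of each group was read as 76 bases and all other replicates as 50 bases on a newer instrument, which makes 2 batches with every genotype in each. Depths were not given. From the steps in low values, depth was estimated at 20205000 reads in wt 1, 14280000 in ZnF1-/- 1 and 6310000 in ZnF4-/- 1, and it remained unknown for the 50 base libraries. At those estimates the 9 genes had between 226 reads (Zbtb7b in ZnF4-/- 1, a counting error of 6.65%) and 60799 reads (Tcf7 in wt 1, 0.406%). Rag1, a recombinase gene of double-positive thymocytes, was at 644 to 965 RPKM in all libraries, as the label of the tissue requires. Levels over the whole of Ikzf1 cannot show the loss of 1 finger, so the genotype was not checked. The batches also differed in sex: Xist, the RNA of the inactive X, was at 90.6 to 109 RPKM in the 3 libraries of 76 bases and at 0.01 to 0.03 RPKM in the 4 of 50 bases, and the Y-linked Ddx3y was at 0 to 0.01 and at 13.2 to 17.4 RPKM. Differences were tested with limma on log2(RPKM + 0.5) over the 10498 genes that averaged 1 RPKM or more, all 9 among them, at an adjusted p of 0.05. A second fit, called blocked, added the batch as a term.

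The 9 genes spanned more than 2 orders of magnitude in wild type thymus. Ranks given here are those of the mean over all 7 libraries, mutants included. In single libraries ranks varied, from 47 to 123 for Lef1 and from 3689 to 6003 for Zbtb7b. Tcf7 was the gene with the highest such mean of the whole table. It was at 1348 RPKM in wt 1, 1911 in wt 2A and 2138 in wt 2B. Satb1 stood at rank 24, with 339, 444 and 415 RPKM in the same order. Both genes kept these places among the 9 in every library. Tcf7 alone made up 63.8% to 70.4% of the summed RPKM of the 9 genes.

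Lef1 (rank 70) was at 118, 181 and 203 RPKM and Bcl11b (rank 152) at 94.1, 143 and 130 RPKM in wt 1, 2A and 2B. Their wild type ranges overlap, yet Lef1 was above Bcl11b in 7 of 7 libraries. Tox (rank 907) was at 35.9, 49.3 and 59.8 RPKM, and Gata3 (rank 1137) at 29.9, 36.2 and 40.6 RPKM. These overlap as well, and Tox was the higher of the pair in 5 of 7 libraries. Runx1 (rank 1531) was at 25.7, 28.1 and 29.7 RPKM.

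The factors that separate the CD4 and CD8 lineages were the least abundant. Zbtb7b (rank 4977) was at 6.99, 10.5 and 13.2 RPKM and Runx3 (rank 5055) at 7.74, 10.5 and 9.87 RPKM in wt 1, 2A and 2B. Their order was not fixed: Zbtb7b was higher in 3 of 7 libraries and Runx3 in the others. All 9 genes were lower in wt 1 than in the mean of the 50 base wild type libraries, by a ratio of 1.12 (Runx1) to 1.69 (Zbtb7b), where the median ratio of all tested genes was 1.20. Comparisons are therefore also given within each batch.

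**Figure D1:**
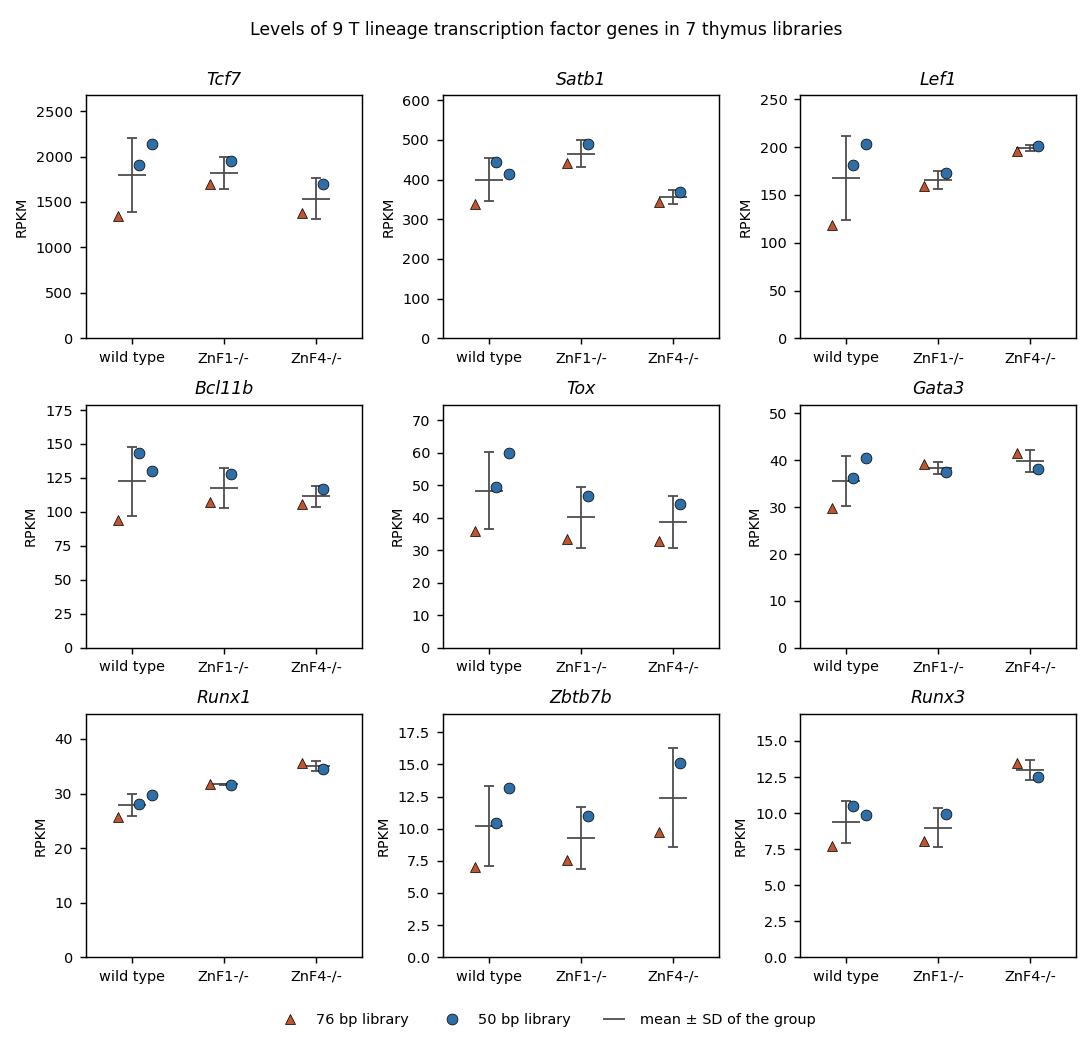
RPKM (vertical axes, from 0, a separate scale for each gene) of the 9 genes by genotype, with 1 point per library, triangles for 76 base and circles for 50 base libraries, and bars for the mean ± SD of a group. The wt 1 triangle is the lowest wild type point of every gene, and the ZnF4-/- points of Runx1 and Runx3 lie above all other points.

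None of the 9 genes passed the test in either mutant. In ZnF1-/- thymus limma called 0 of 9, with 0 at an unadjusted p under 0.05, where 0.0857% of all tested genes were called and 3.85% had an unadjusted p under 0.05. In ZnF4-/- thymus it called 0 of 9 with 2 at an unadjusted p under 0.05 (Runx3 and Runx1), against 2.54% called and 10.1% under 0.05 of all tested genes. The blocked fit called 0.876% and 8.22% of all tested genes in the 2 mutants, and again 0 of 9 in each. There 0 and 3 of the 9 had an unadjusted p under 0.05, against 8.73% and 20.5% of all tested genes. The median log2 difference of the 9 genes from wild type was 0.02 in ZnF1-/- and 0.17 in ZnF4-/-, and that of all tested genes was -0.02 and -0.05. The 2 mutants were compared with the same 3 wild type libraries.

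**Figure D2:**
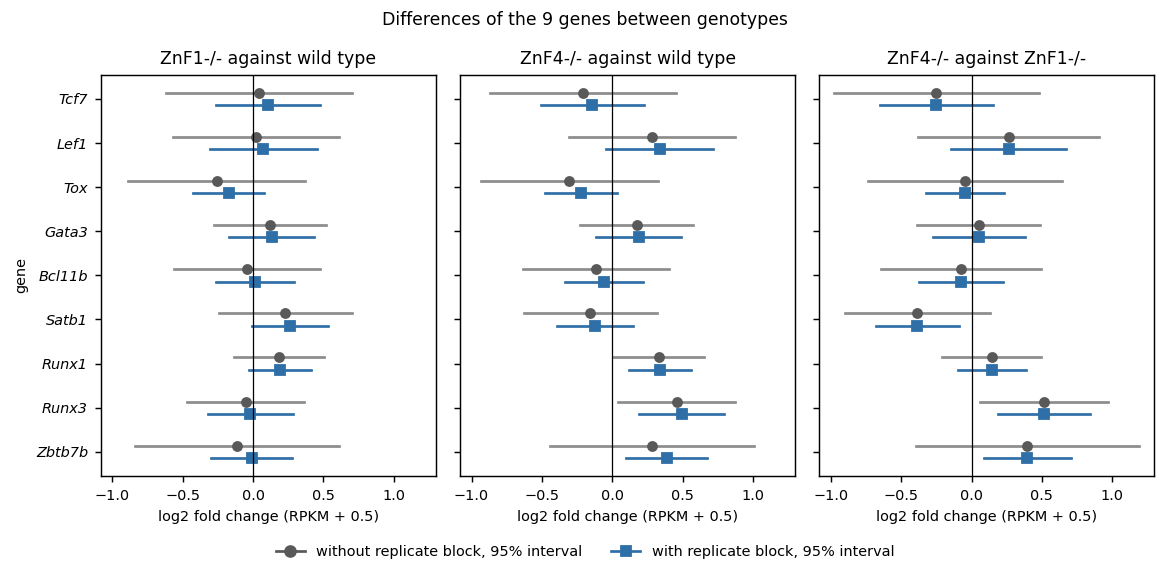
Log2 differences between genotypes for the 9 genes (horizontal axes, on the log2(RPKM + 0.5) scale), 1 panel per comparison, with 95% intervals from the fit without the batch term (grey circles) and with it (blue squares). The intervals of Runx1 and Runx3 in ZnF4-/- against wild type lie above 0 in both fits, that of Zbtb7b only in the blocked fit, and all 9 intervals of ZnF1-/- against wild type include 0 in both.

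Runx1 and Runx3 encode the DNA-binding subunits of core binding factor in T cells. Runx1 lies on the minus strand of chromosome 16 at 92601712 to 92826311 (mm9, GENCODE vM1), and Runx3 on the plus strand of chromosome 4 at 134676567 to 134733905. The exons of Runx1 overlap a non-coding RNA on the opposite strand, Gm16801, and whether reads were counted by strand is not given, so reads of that RNA cannot be told apart from those of Runx1. Runx1 was at 25.7 RPKM in wt 1, 28.1 in wt 2A and 29.7 in wt 2B, at 35.6 in ZnF4-/- 1 and 34.5 in ZnF4-/- 2, and at 31.7 in ZnF1-/- 1 and 31.6 in ZnF1-/- 2. The groups form 3 steps without overlap: wild type lowest, ZnF1-/- between, ZnF4-/- highest. How many of all tested genes form such steps was not counted, so the order is given as a description only. The log2 difference of ZnF4-/- from wild type was 0.33 ± 0.14 (SE; 95% interval 0.01 to 0.65; adjusted p = 0.475), and 0.34 ± 0.10 in the blocked fit (0.12 to 0.56; adjusted p = 0.0768). That of ZnF1-/- was 0.19 ± 0.14 (-0.14 to 0.51; adjusted p = 1.00).

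Runx3 was at 7.74, 10.5 and 9.87 RPKM in wt 1, 2A and 2B, at 13.5 and 12.5 in ZnF4-/- 1 and 2, and at 8.04 and 9.94 in ZnF1-/- 1 and 2. The ZnF4-/- libraries lie above all 5 others, and the ZnF1-/- libraries lie within the wild type range. The log2 difference of ZnF4-/- from wild type was 0.46 ± 0.18 (SE; 0.04 to 0.87), a fold of 1.37 (1.03 to 1.83), with an adjusted p of 0.416. In the blocked fit it was 0.49 ± 0.13 (0.19 to 0.79; adjusted p = 0.0620). Against ZnF1-/- it was 0.51 ± 0.19 (0.06 to 0.97; adjusted p = 0.428, and 0.0769 in the blocked fit). Within the batches, Runx3 of ZnF4-/- was 0.76 log2 units above wild type at 76 bases and 0.28 above the wild type mean at 50 bases, and Runx1 was 0.46 and 0.25 above. Runx1 and Runx3 are 2 of 9 genes whose ZnF4-/- libraries all exceed wild type, and 12.5% of all tested genes did the same. For ZnF1-/- it was 1 of 9 (Runx1), and 6.85% of all tested genes.

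After the batch term was joined to a scaling of libraries, Runx3 in ZnF4-/- against wild type passed, with an adjusted p of 0.0263 under a common median and 0.0362 under quantile normalization, and Runx1 passed under the latter at 0.0311. Over all 19 alternatives Runx3 stayed higher in ZnF4-/- than in wild type, with an unadjusted p under 0.05 in 15 of them and adjusted p-values of 0.0263 to 1.00, and was called in 2. Both of these combined settings were added after the data had been seen.

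RefSeq (GRCm38.p6) gives 2 start sites for each of these genes. The windows of the upstream starts, 250 bases before to 50 after, are shown because each holds a core of the motif that Ikaros binds and a pair of the motif that RUNX proteins bind. Capitals mark GGGAA, the Ikaros core, and ACCACA, the reverse complement of TGTGGT, the RUNX motif. The Runx1 window is chr16:92826025-92826324 on the minus strand and the Runx3 window is chr4:135120395-135120694 on the plus strand.
Runx1: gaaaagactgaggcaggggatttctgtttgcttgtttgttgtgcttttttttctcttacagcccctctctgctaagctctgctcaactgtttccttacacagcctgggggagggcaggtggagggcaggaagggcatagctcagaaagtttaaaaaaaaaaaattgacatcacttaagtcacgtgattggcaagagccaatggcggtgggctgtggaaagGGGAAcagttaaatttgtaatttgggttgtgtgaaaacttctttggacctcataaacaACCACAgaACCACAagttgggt
Runx3: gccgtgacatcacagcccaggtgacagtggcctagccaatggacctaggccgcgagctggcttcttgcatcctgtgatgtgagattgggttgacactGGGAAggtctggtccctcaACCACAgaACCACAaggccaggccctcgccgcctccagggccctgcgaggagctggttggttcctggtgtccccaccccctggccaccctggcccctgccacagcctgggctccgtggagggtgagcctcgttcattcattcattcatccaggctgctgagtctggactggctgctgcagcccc
In Runx1 the Ikaros core began 30 bases before the start and the RUNX motifs 28 and 36 bases after it. In Runx3 the Ikaros core began 153 bases before the start and the RUNX motifs 134 and 126 bases before it. The 2 windows share the run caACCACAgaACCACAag, 18 bases with a pair of RUNX motifs 2 bases apart. That pair, noticed in these 2 windows and then counted, occurred in 4 of all 32851 windows (0.0122%), which belong to Runx1, Runx3, their relative Runx2, and Gm16225. Runx2 itself was at 0.72 to 0.86 RPKM in wild type, 1.13 and 1.53 in ZnF1-/- and 0.48 and 0.52 in ZnF4-/-, under the mean needed for a test. The downstream windows of Runx1 and Runx3 held no TGTGGT. The downstream window of Runx1 also held an Ikaros core, 56 bases before its start, and that of Runx3 held none.

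The Ikaros core was common in the promoters of the other genes, as it was over all promoter windows. Counted on both strands, GGGAA occurred in 13 of the 19 windows of the 8 genes with an entry (Tox had none), from 6 genes, and in 62.7% of all windows. The longer TGGGAA, each match of which holds a GGGAA, occurred in 7 of 19 windows from 4 genes (Lef1, Runx3, Satb1 and Zbtb7b) and in 25.6% of all windows. TGTGGT was found in 3 of 19 windows (Runx1, Runx3 and Zbtb7b), against 16.8% of all. The GATA motif AGATAA occurred in 1 (Lef1), against 11.2%, and the TCF and LEF motif CTTTGAA in 1 (Bcl11b), against 5.14%. A match describes letters in a window and not a bound site.

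Tcf7 and Lef1, the HMG-box pair, did not pass the test in either mutant, and the ratio between them is given after their levels. Tcf7 (chromosome 11, 52065873 to 52096681, minus strand) was at 1696 and 1948 RPKM in ZnF1-/- 1 and 2 and at 1375 and 1701 in ZnF4-/- 1 and 2, all within the wild type range of 1348 to 2138. Its log2 difference from wild type was 0.04 ± 0.28 in ZnF1-/- and -0.21 ± 0.28 in ZnF4-/- (95% interval -0.87 to 0.46; adjusted p = 0.968). Lef1 (chromosome 3, 130813389 to 130927274, plus strand) was at 159 and 172 RPKM in ZnF1-/- 1 and 2 and at 196 and 201 in ZnF4-/- 1 and 2. The ZnF4-/- values lie at the top of the wild type range of 118 to 203 and above both ZnF1-/- libraries. Lef1 differed from wild type by 0.02 ± 0.25 in ZnF1-/- and by 0.28 ± 0.25 in ZnF4-/- (-0.31 to 0.87; adjusted p = 0.919).

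The ratio of Tcf7 to Lef1 within a library was nearly the same in both batches of wild type, at 11.4 in wt 1, 10.5 in wt 2A and 10.5 in wt 2B. In ZnF1-/- it was 10.7 and 11.3. In ZnF4-/- it was 7.0 in replicate 1 and 8.46 in replicate 2, below all 5 other libraries. The group means were 10.8 ± 0.510 (SD, n = 3), 11.0 ± 0.434 (n = 2) and 7.73 ± 1.03 (n = 2). No test was run on ratios, whose permutation p for 3 libraries against 2 is at least 0.1. Such a gap was common: of all 36 pairs of the 9 genes, 19 had ratios in ZnF4-/- that did not overlap wild type and 7 in ZnF1-/-, and in 13 the ZnF4-/- ratios lay apart from all 5 other libraries. A ratio shows unequal change without showing which gene changed.

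**Figure D3:**
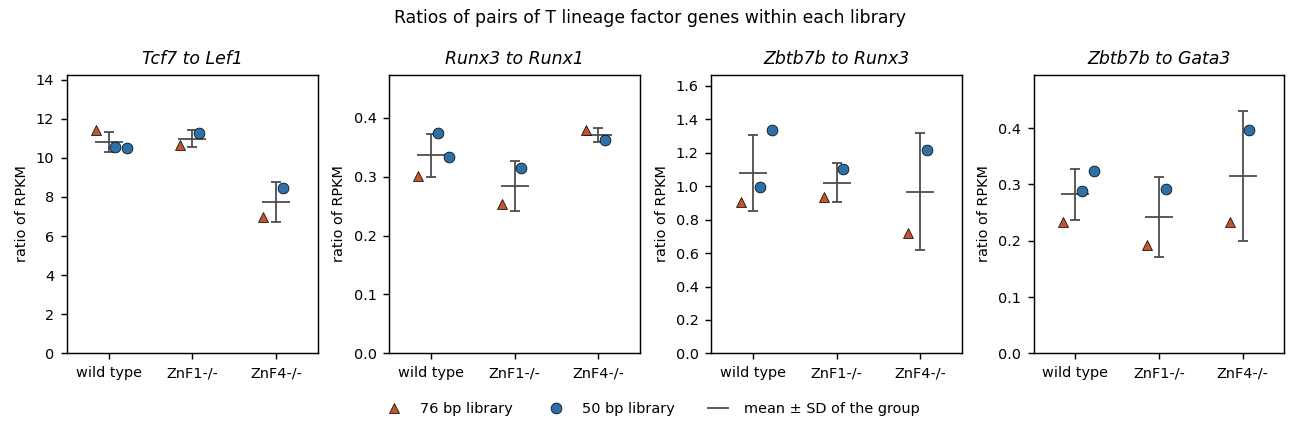
Ratios of RPKM within each library for 4 pairs of the genes (vertical axes, from 0), by genotype, with 1 point per library, triangles for 76 base and circles for 50 base libraries, and bars for the mean ± SD of a group. The Tcf7 to Lef1 ratio is at 7.0 and 8.46 in ZnF4-/- and at 10.5 to 11.4 in the 5 other libraries, and in the other 3 ratios each mutant overlaps wild type.

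The other 3 ratios, among them the CD4 factor Zbtb7b against the CD8 factor Runx3, overlapped wild type in both mutants. Zbtb7b to Runx3 was 0.903, 0.993 and 1.33 in wild type, 0.938 and 1.10 in ZnF1-/- and 0.720 and 1.21 in ZnF4-/-, with the lower value of each group in the 76 base batch. Zbtb7b to Gata3 ran from 0.234 to 0.324 in wild type, was 0.192 and 0.292 in ZnF1-/- and 0.234 and 0.396 in ZnF4-/-. Runx3 to Runx1 ran from 0.301 to 0.374 in wild type, was 0.254 and 0.314 in ZnF1-/- and 0.379 and 0.362 in ZnF4-/-.

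Zbtb7b (chromosome 3, 89181566 to 89198698, minus strand) showed the widest spread between batches. It was at 6.99 RPKM in wt 1, 7.54 in ZnF1-/- 1 and 9.71 in ZnF4-/- 1 at 76 bases, and at 10.5 and 13.2 in wt 2A and 2B, 10.9 in ZnF1-/- 2 and 15.1 in ZnF4-/- 2 at 50 bases. ZnF4-/- was the highest library of each batch, by 0.45 log2 units over wild type at 76 bases and 0.35 over the wild type mean at 50 bases. The groups overlap once batches are pooled: the difference was 0.28 ± 0.31 without the batch term (-0.44 to 1.01; adjusted p = 0.955) and 0.39 ± 0.12 with it (0.10 to 0.67; adjusted p = 0.116). In ZnF1-/- it was -0.11 ± 0.31 (adjusted p = 1.00). Gm15417 on the opposite strand overlaps its exons.

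Gata3 and Bcl11b, the commitment factors, did not pass either, and their differences from wild type were at most 0.19 log2 units in size in either fit. Gata3 (chromosome 2, 9778705 to 9811661, minus strand) was at 39.2 and 37.5 RPKM in ZnF1-/- 1 and 2 and at 41.5 and 38.2 in ZnF4-/- 1 and 2, against 29.9 to 40.6 in wild type. Only ZnF4-/- 1 lies outside the wild type range. The log2 differences were 0.12 ± 0.17 in ZnF1-/- (-0.28 to 0.52) and 0.17 ± 0.17 in ZnF4-/- (-0.23 to 0.57; adjusted p = 0.938). Its exons overlap 9230102O04Rik on the same strand and Gm13256 on the opposite one.

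Bcl11b (chromosome 12, 109148613 to 109241812, minus strand) was at 107 and 128 RPKM in ZnF1-/- 1 and 2 and at 106 and 117 in ZnF4-/- 1 and 2, inside the wild type range of 94.1 to 143. It differed by -0.04 ± 0.22 in ZnF1-/- and -0.12 ± 0.22 in ZnF4-/- (-0.63 to 0.40; adjusted p = 0.980), and by 0.01 and -0.06 in the blocked fit. The blocked 95% interval in ZnF4-/- was -0.33 to 0.21.

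Tox, an HMG-box factor of positive selection, was the gene that stood lower in both mutants in each batch. Tox (chromosome 4, 6613500 to 6918704, minus strand) was at 35.9 RPKM in wt 1, 33.3 in ZnF1-/- 1 and 33.0 in ZnF4-/- 1 at 76 bases, and at 49.3 and 59.8 in wt 2A and 2B, 46.8 in ZnF1-/- 2 and 44.3 in ZnF4-/- 2 at 50 bases. Each mutant library is below every wild type library of its own batch, although the pooled groups overlap. The difference was -0.26 ± 0.27 in ZnF1-/- (-0.89 to 0.37) and -0.31 ± 0.27 in ZnF4-/- (-0.93 to 0.32; adjusted p = 0.915), and in the blocked fit -0.22 in ZnF4-/- (-0.47 to 0.03; adjusted p = 0.316). Gm11802 on the opposite strand overlaps its exons.

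Satb1 separated the mutants from each other more than from wild type. Satb1 (chromosome 17, 51875512 to 51972615, minus strand) was at 339, 444 and 415 RPKM in wt 1, 2A and 2B, at 441 and 490 in ZnF1-/- 1 and 2 and at 344 and 368 in ZnF4-/- 1 and 2. ZnF1-/- was the highest library of each batch, and both ZnF4-/- libraries lie below both ZnF1-/- libraries. The difference of ZnF1-/- from wild type was 0.23 ± 0.20 (-0.24 to 0.70; adjusted p = 1.00), and 0.26 in the blocked fit (-0.01 to 0.53; adjusted p = 0.584). ZnF4-/- differed from wild type by -0.16 ± 0.20 (-0.63 to 0.32; adjusted p = 0.967) and from ZnF1-/- by -0.38 ± 0.22 (-0.90 to 0.13; adjusted p = 0.788, and 0.134 in the blocked fit).

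Between the 2 mutants limma called 0 of 9 genes in either fit, where 2.34% of all tested genes were called without the batch term and 7.29% with it. An unadjusted p under 0.05 was found for 1 of the 9 (Runx3) without it and for 3 with it, against 9.17% and 20.2% of all tested genes. The groups did not overlap for 4 of the 9: Lef1, Runx1 and Runx3 were higher in ZnF4-/- and Satb1 lower, and 32% of all tested genes did not overlap in one direction or the other. Counting the 3 differences within batches (replicate 1 from wt 1, replicate 2 from wt 2A and from 2B), 3 of 9 genes had 1 sign in ZnF1-/- (Runx1 and Satb1 higher, Tox lower) and 4 of 9 in ZnF4-/- (Runx1, Runx3 and Zbtb7b higher, Tox lower). The same held for 37.8% and 44.9% of all tested genes. Differences of up to 0.89 log2 units in ZnF1-/- and 1.01 in ZnF4-/- lay within the 95% intervals of at least 1 of the 9 genes in the fit without the batch term, and up to 0.53 and 0.79 with it.

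A few of the factors that work beside these genes were called in ZnF4-/-, most of them only in the blocked fit. Of 63 such genes in 5 lists, 62 were in the table and 45 were tested. In ZnF1-/- against wild type limma called 0 of 45, and 3 had an unadjusted p under 0.05. The shares of all tested genes were 0.0857% called and 3.85% with such a p. With the batch term 1 fell, where 0.876% were called. In ZnF4-/- against wild type 2 rose and 0 fell, where 2.54% of all tested genes were called, and in the blocked fit 6 rose and 4 fell, where 8.22% were called. In ZnF4-/- against ZnF1-/- 2 rose and 0 fell (2.34% of all tested genes were called), and in the blocked fit 7 rose and 2 fell (7.29% were called). Of the calls that the blocked fit made among these genes and the target genes described after them, 28 in all over the 3 comparisons, 14 were lost when wt 2A and 2B were also averaged. The adjusted p of that setting, called averaged, is given beside each named call that it ended. The median log2 difference of the 45 was -0.11 in ZnF1-/- and -0.05 in ZnF4-/- from wild type.

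Rora, which encodes an orphan nuclear receptor, was at 1.28, 1.07 and 1.55 RPKM in wt 1, 2A and 2B, at 0.70 and 1.16 in ZnF1-/- 1 and 2 and at 3.71 and 3.77 in ZnF4-/- 1 and 2. Both ZnF4-/- libraries are far above the other 5. Rora rose by 1.24 ± 0.21 against wild type (adjusted p = 0.0291) and by 1.59 ± 0.23 against ZnF1-/- (adjusted p = 0.0156). With 2 ZnF4-/- libraries the first call rests on each of them: without ZnF4-/- 1 the adjusted p was 0.189, without ZnF4-/- 2 it was 0.205, and it was 0.0545, 0.102 and 0.0879 without wt 1, 2A and 2B, and 0.0831 without the batch term when 2A and 2B were averaged. The call against ZnF1-/- was lost without ZnF1-/- 1 (0.0989), ZnF4-/- 1 (0.114) and ZnF4-/- 2 (0.122).

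Notch1, the receptor that starts the T programme, was at 34.6, 63.2 and 49.6 RPKM in wild type, 31.1 and 53.8 in ZnF1-/- and 82.5 and 93.0 in ZnF4-/-. ZnF4-/- does not overlap the others. Its difference from wild type was 0.87 (adjusted p = 0.356) and it rose by 0.96 in the blocked fit (adjusted p = 0.00871). Kit, a receptor of progenitors listed with the genes that commitment shuts down, was at 2.02, 2.31 and 2.08 RPKM in wild type, 2.66 and 2.85 in ZnF1-/- and 4.12 and 4.69 in ZnF4-/-. It rose in ZnF4-/- by 0.89 ± 0.15 (adjusted p = 0.0267, and 0.00384 in the blocked fit). That call was lost on leaving out any 1 of the 7 libraries (adjusted p 0.0508 to 0.223) and on averaging wt 2A and 2B (0.104). Of the 11 progenitor genes on that list, only Kit and Lyl1 reached the mean needed for a test.

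Myb, which double-positive cells need, was at 197, 250 and 218 RPKM in wild type, 186 and 226 in ZnF1-/- and 147 and 146 in ZnF4-/-, and fell by 0.56 in the blocked fit (adjusted p = 0.0243; 0.264 without the batch term and 0.0670 averaged). Tox2 and Tox3, relatives of Tox, fell in the same fit. Tox2 was at 1.46, 2.85 and 2.39 RPKM in wild type and 0.27 and 0.97 in ZnF4-/- (blocked difference -1.21, adjusted p = 0.00459; 0.164 without the batch term), and at 0.62 and 1.11 in ZnF1-/-. Tox3 was at 1.36, 2.84 and 2.68 RPKM in wild type, 2.04 and 2.07 in ZnF1-/- and 0.64 and 0.88 in ZnF4-/- (blocked difference -1.04, adjusted p = 0.0173; 0.128 without the batch term and 0.0741 averaged). These levels are close to the added 0.5 RPKM, which understates their folds.

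Sox13, an HMG-box factor of γδ T cells, stood apart in ZnF1-/-. It was at 2.91, 4.12 and 4.26 RPKM in wild type, 1.40 and 1.79 in ZnF1-/- and 4.22 and 4.56 in ZnF4-/-. It was 1.23 ± 0.22 higher in ZnF4-/- than in ZnF1-/- (adjusted p = 0.0331), a call lost without any 1 library other than wt 1 (adjusted p 0.0646 to 0.231), on averaging wt 2A and 2B (0.0724), with no filter (0.0505) and with a filter at 3 RPKM (0.0673). Against wild type it was -1.02 in ZnF1-/- (adjusted p = 0.272) and fell by 0.97 in the blocked fit (adjusted p = 0.0242; 0.101 averaged).

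Of 12 tested factors of mature and innate-like T cells, 0 were called in ZnF4-/- against wild type (3 had an unadjusted p under 0.05). Over all tested genes 2.54% were called and 10.1% had such a p. With the batch term 3 rose, where 8.22% of all tested genes were called. Foxo1, which switches on homing genes in mature T cells, was at 16.4 to 17.2 RPKM in wild type, 16.5 and 16.9 in ZnF1-/- and 21.7 and 23.1 in ZnF4-/-, and rose by 0.40 in the blocked fit (adjusted p = 0.0284; 0.239 without the batch term and 0.0869 averaged). Bach2 rose by 0.73 (adjusted p = 0.00560; 0.0812 without) and Egr3, induced by signals of the T cell receptor, by 0.70 (adjusted p = 0.0443; 0.441 without, 0.0753 averaged and 0.0594 with the block and quantile normalization). Among 5 tested partners and relatives of the RUNX, GATA, BCL11, SATB and ThPOK factors, 0 were called in either mutant against wild type. Without the batch term 0 of these 5 had an unadjusted p under 0.05. In that fit 0.0857% (ZnF1-/-) and 2.54% (ZnF4-/-) of all tested genes were called, and 3.85% and 10.1% had such a p. Cbfb, the partner that RUNX proteins need to bind DNA well, was at 53.5 to 54.9 RPKM in wild type, 51.0 and 55.2 in ZnF1-/- and 44.6 and 49.8 in ZnF4-/-. Zbtb7a, a relative of Zbtb7b, was higher in ZnF4-/- than in ZnF1-/- in the blocked fit by 0.40 (adjusted p = 0.0460; 0.0867 averaged), and by 0.05 without ZnF4-/- 2 in the fit without the batch term.

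**Figure D4:**
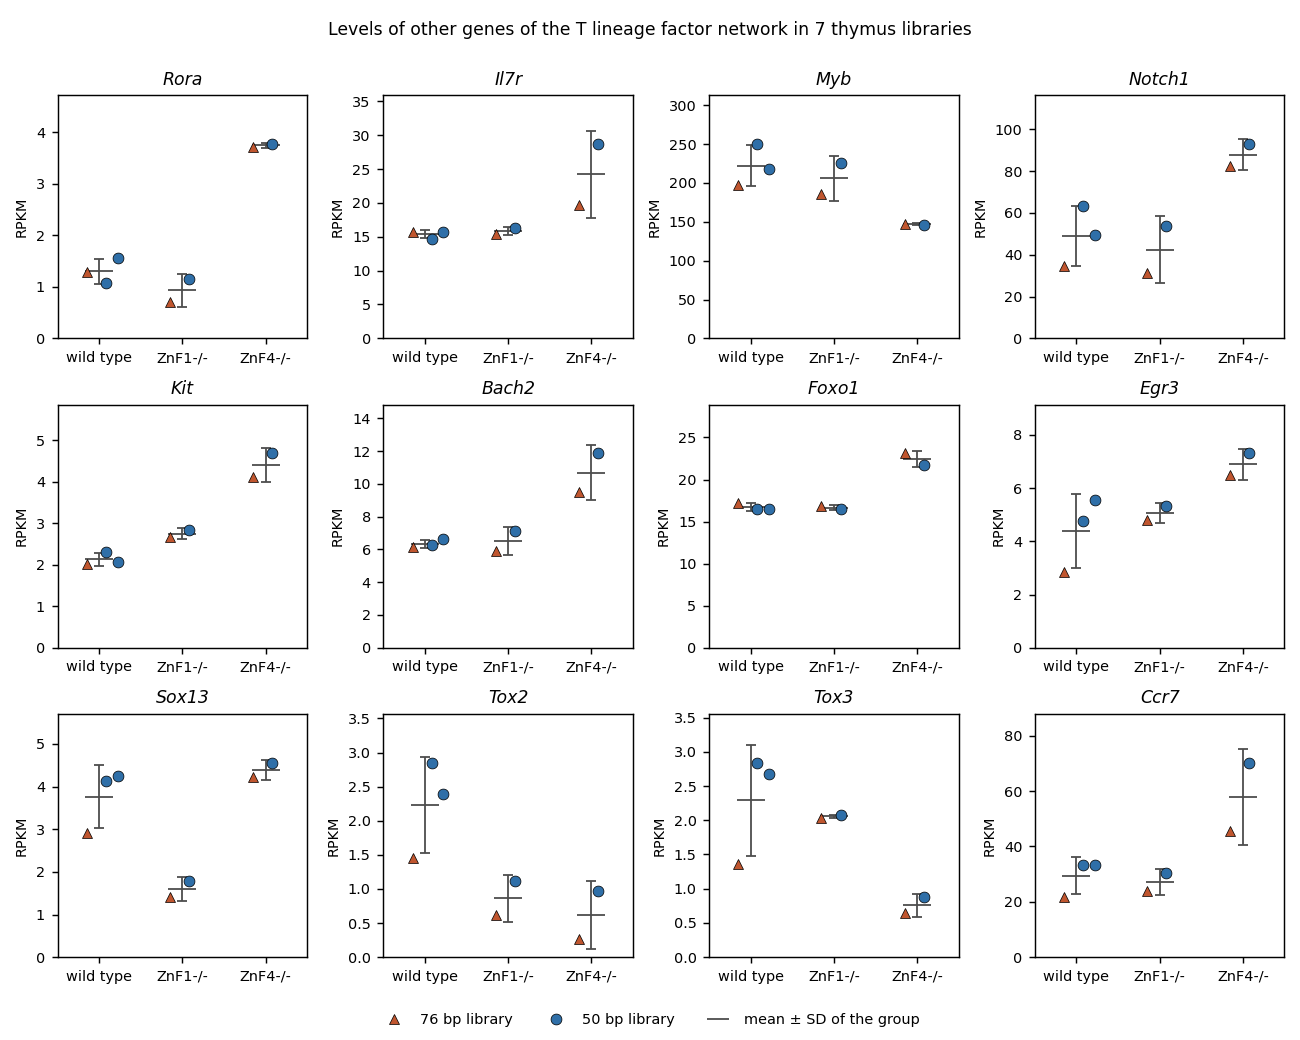
RPKM (vertical axes, from 0, a separate scale for each gene) of 12 genes that act with the 9 factors or are controlled by them, by genotype, with 1 point per library, triangles for 76 base and circles for 50 base libraries, and bars for the mean ± SD of a group. In ZnF4-/- the points of Rora, Notch1, Kit, Bach2, Foxo1, Egr3, Il7r and Ccr7 lie above and those of Myb, Tox2 and Tox3 below all wild type points, and the 2 ZnF1-/- points of Sox13 lie below all others. All 12 genes were shown because they were called in at least 1 fit on these same values, so the gaps are no separate support. Of all tested genes 12.5% lay above wild type in ZnF4-/-, and the share below was not counted.

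The genes that these factors are known to control were taken from a list of 20, Tcf7 among them, of which 19 were tested. Without the batch term 0 of 19 were called in either mutant, with 0 at an unadjusted p under 0.05 in ZnF1-/- and 3 in ZnF4-/-. Of all tested genes 0.0857% and 2.54% were called, and 3.85% and 10.1% had such a p. In the blocked fit, ZnF1-/- had 0 calls, and in ZnF4-/- 2 rose and 1 fell, where 0.876% and 8.22% of all tested genes were called. Cd8a, a coreceptor gene that RUNX proteins and BCL11B act on, was at 499, 584 and 613 RPKM in wild type, 636 and 623 in ZnF1-/- and 397 and 386 in ZnF4-/-. Both ZnF4-/- libraries lie below the other 5, and Cd8a fell by 0.51 (adjusted p = 0.0479; 0.371 without the batch term and 0.149 averaged). Cd4 was at 401, 462 and 500 RPKM in wild type, 396 and 433 in ZnF1-/- and 302 and 407 in ZnF4-/-, a difference of -0.37 in ZnF4-/- (-0.87 to 0.14; adjusted p = 0.754).

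Ccr7, the receptor that guides selected thymocytes to the medulla, was at 21.9, 33.2 and 33.4 RPKM in wild type, 23.9 and 30.5 in ZnF1-/- and 45.7 and 70.3 in ZnF4-/-. It rose by 1.04 in the blocked fit (adjusted p = 0.000573; 0.182 without the batch term). Il7r, the receptor for interleukin 7, rose by 0.64 (adjusted p = 0.0269; 0.211 without and 0.0927 averaged). Between the mutants, Ptcra (the pre-T cell receptor chain) was 0.86 and Axin2 (a target of TCF and LEF with β-catenin) 0.66 higher in ZnF4-/- in the blocked fit (adjusted p = 0.0380 and 0.0190), and Cd8b1 differed by -0.55 (adjusted p = 0.0460). Averaged, the adjusted p of Ptcra was 0.0524 and that of Cd8b1 0.0848, and Cd8b1 was also lost with the block and a common median (0.0533).

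Markers of the cell stages moved beside these genes in ZnF4-/-. The summed RPKM of 9 markers of double-positive cells was 3182 to 4001 in wild type, 3485 to 3971 in ZnF1-/- and 2607 to 3152 in ZnF4-/-. That of 7 markers of mature cells was 140 to 176, 163 to 185 and 181 to 242 in the same order, and that of 7 markers of immature cells was 46.3 to 47.9, 46.7 to 55.7 and 62.3 to 63.5. These lists did not move as one: against wild type the ZnF4-/- mean was lower for 7 of the 9 double-positive markers, higher for 6 of the 7 mature ones and higher for 4 of the 7 immature ones. Among the immature markers Dtx1 (16.1 against 7.40 RPKM) and Il7r (24.2 against 15.4, also on the mature list) were higher, and Il2ra (11.7 against 16.1) and Cd34 (0.28 against 0.47) lower. S1pr1, the exit receptor of mature cells, rose in ZnF4-/- by 1.05 (adjusted p = 0.0283). Markers of NK cells summed to 36.2 to 49.2, 33.7 to 36.4 and 74.3 to 75.8 RPKM (6 genes), mostly Nkg7 and Gzma. The mean of 4 of them was higher in ZnF4-/- than in wild type, and those of Ncr1 (0.12 against 0.17 RPKM) and Klrb1c (0.14 against 0.53 RPKM) were lower. Markers of myeloid cells summed to 53.9 to 74.7, 43.8 to 68.3 and 93.5 to 121 (8 genes). Of this, Lyz2 made up 56.8 and 73.9 RPKM in ZnF4-/- 1 and 2. For 7 of these genes directions were counted: the ZnF4-/- mean was above wild type for 6 and below it for Cd68. Erythroid markers summed to 15.2 to 35.0, 11.4 to 33.6 and 51.1 to 70.6 RPKM (6 genes). Of this, Hbb-b1 made up 43.4 and 44.9 RPKM in ZnF4-/- 1 and 2, and all 6 means were above wild type. B cell markers were at 20.2 to 25.4, 27.2 to 36.5 and 15.6 to 20.3 (8 genes), mostly Cd79b. The ZnF4-/- mean was above wild type for 5 of these and below it for 3 (Cd79b, Ms4a1 and Blnk). Epithelial markers (8 genes, 4.44 to 6.82 RPKM) and endothelial markers (4 genes, 29.6 to 42.1 RPKM) overlapped between groups. The endothelial sum was mostly Pecam1 (29.35 to 41.77 RPKM), and Cdh5, Kdr and Tek were at 0 to 0.88 RPKM. Against wild type the ZnF4-/- mean was higher for 2 of these 4 genes and lower for 2 (Kdr and Tek). Fibroblast markers were near 0, at 0.45 to 0.49, 0.20 to 0.57 and 0.50 to 0.97 RPKM (6 genes, with Pdgfra at 0 in all libraries). The part of any of these cells in the levels of the 9 factors was not tested.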

How the data were processed

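Polyadenylated RNA of whole thymus from 3 wt, 2 ZnF1-/- and 2 ZnF4-/- libraries was analysed from the RPKM values that the authors deposited. Per the labels' series text, SeqMonk counted exonic reads on the NCBI annotation of mm9, and 1 entry was kept per gene. TopHat and bedtools are named in the submitters' processing notes. Versions, strand and depth are not given in the sources used here. Nothing in the labels states that replicates are different animals, and p-values then measure only the spread between these samples, which may be technical.

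From the deposited RPKM, log2(RPKM + 0.5) was computed, which understates the folds of low genes, and the 10498 genes that averaged 1 RPKM or more were fitted with limma 3.58.1 (lmFit, eBayes with trend, R 4.3.3) in 1 model of the 3 groups. P-values are two-sided and adjusted by Benjamini and Hochberg over all tested genes, at a threshold of 0.05. Errors of differences are SE and of levels SD. The script was tested on simulated data. Estimated depths come from whole-read steps of low RPKM values: 51.8% of low values lay on the steps in wt 1 (29.1% by chance), 56.2% in ZnF1-/- 1 (28.0%) and 57.4% in ZnF4-/- 1 (12.9%). In the 50 base libraries no depth stood out (29.2% to 31.2% on steps, 23.8% to 25.5% by chance). Counting errors derived from these depths cover counting only.

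The labels tie replicate number 1 to 1 instrument and read length, and the numbers 2, 2A and 2B to another, so the number was also fitted as a block. In each of the 8 pairs of libraries that share a number across groups, their deviations from the group means were correlated over genes (r from 0.489 to 0.737). These 8 values are not independent. Deviations of the 2 libraries of a mutant mirror each other, so both pairs between the mutants have the same r (0.658). The median SE of a mutant against wt was 0.203 without and 0.128 with the block. Wt leans to the 50 base batch, so part of the batch and sex difference enters the unblocked differences.

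The 9 genes and all lists were chosen with earlier results of these data known. Listed genes are named where they passed in either fit, except any that are counted but not reported here. Cd4, Cbfb, Rag1, Lyl1 and Runx2 did not pass and are named for their roles after their values were seen. Genes with profiles like a member would have been named for members that passed, and none did. Alternatives were other pseudocounts (0.1 and 1 RPKM), filters, scalings, the block, averaging of wt 2A and 2B, no trend, and leaving out each library. Positions of genes are from GENCODE vM1 (mm9), and promoter windows from RefSeq (GRCm38.p6), with 8 of 9 genes matched.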

Additional observations from a re-analysis of the deposited data

Results flagged for a closer look

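For 5 differences among the 9 genes, the mutant stood on 1 side of wild type in the 76 base batch and on the other side of both wild type libraries in the 50 base batch. The difference between batches was not tested, and each batch holds 1 library of a mutant. Lef1 in ZnF1-/- was 0.426 log2 units above wild type at 76 bases and -0.154 from the wild type mean at 50 bases. Bcl11b in ZnF1-/- was at 0.188 and -0.0927, and Bcl11b in ZnF4-/- at 0.170 and -0.223. Tcf7 in ZnF4-/- was at 0.0290 and -0.249, and Satb1 in ZnF4-/- at 0.0222 and -0.220. After scaling libraries to a common median, Tcf7 in ZnF4-/- was lower in all 3 differences within batches (-0.04, -0.06 and -0.32), and so was Satb1 (-0.05, -0.16 and -0.16). No library of the groups of 2 and 3 could be examined as an outlier.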

How the results depend on the processing

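In 513 values (27 differences of the 9 genes under 19 alternatives, 16 planned) 5 passed, all with the replicate block joined to a scaling chosen after seeing the data: of the 9 genes, 1 passed in ZnF4-/- against wild type and 1 against ZnF1-/- with the common median, and 2 and 1 with quantile normalization. The block alone changed no call among the 9. The sign held under all alternatives for 14 of the 27.

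Counts over all tested genes moved more, for causes that were not tested. ZnF1-/- against wild type gave 9 calls, and 3 with no filter, 4 with a filter at 3 RPKM, 18 at a common median, 14 with quantile normalization, 14 without trend, 1 with wt 2A and 2B averaged, 92 with the block, 142, 124 and 25 with the block and common median, quantiles or averaging, and 1 to 10 when 1 library was left out. ZnF4-/- against wild type gave 267, and in that order 596 with no filter, 123 with the filter, 130 averaged, 863 with the block, 993, 964 and 580 with the combined settings, and 44 (without ZnF4-/- 2) to 253 when 1 library was left out. ZnF4-/- against ZnF1-/- gave 246, 576 with no filter, 119 with the filter, 765 with the block, 889, 854 and 606 combined, and 90 to 318 when 1 library was left out. The share of calls that rose was 88.9% in ZnF1-/- and 88% in ZnF4-/-, 65.2% and 74.2% with the block, and 72.2% in ZnF1-/- at a common median and 71.4% with quantiles.

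Signs turned, or differences went to 0, as follows. Tcf7 ranked 1 or 2 in every library, and quantile normalization gives genes of equal rank equal values. Its values of 0 are therefore set by that method and are not turned signs. With quantile normalization, without and with the block, Tcf7 in ZnF1-/- was at -0.0687 and 0, Bcl11b at 0.0398 and 0.0426 in ZnF1-/- and at 0.0305 and 0.0333 in ZnF4-/-, Satb1 in ZnF4-/- at 0.0157 and 0.0011, Tcf7 in ZnF4-/- against ZnF1-/- at 0 and 0, Tox in that comparison at 0.0193 and 0.0193, and Tcf7 in ZnF4-/- at 0 with the block. Bcl11b in ZnF1-/- was at 0.0139 with the block and 0.0468 with averaging, without and with the block, and Runx3 at 0.00839 in both of the latter. Leaving out 1 library gave -0.153 to 0.179 for Tcf7, -0.214 to 0.177 for Lef1, -0.219 to 0.0853 for Bcl11b, -0.199 to 0.0910 for Runx3 and -0.369 to 0.141 for Zbtb7b in ZnF1-/-. In ZnF4-/- it gave -0.293 to 0.0081 for Bcl11b and -0.0247 to 0.590 for Zbtb7b, and against ZnF1-/- -0.00596 to 0.112 for Gata3, -0.200 to 0.0529 for Bcl11b and -0.289 to 0.194 for Tox.

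With 2 libraries per mutant and unknown depth at 50 bases, differences smaller than the intervals given could not be detected.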
